A study of Mus musculus with 2 samples.

Results

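The expression of 3 chemokine genes, Cxcl9, Cxcl10 and Cxcl16, was followed through the immune cells of distant mouse tumors. They were taken by symbol from the 32285 features of 2 single-cell RNA-seq libraries, and all 3 were found. Cxcl9 (ENSMUSG00000029417) lies on chr5:92321347-92328079 and Cxcl10 (ENSMUSG00000034855) on chr5:92346638-92348889, both on the minus strand of GRCm38 and 18558 bases apart. Cxcl16 (ENSMUSG00000018920) lies on another chromosome, at chr11:70453983-70459984, also on the minus strand. All 3 are annotated as protein coding in GENCODE vM21. Cxcl11, which neighbors Cxcl10, is annotated there as a polymorphic pseudogene. It is not among the features, so it could not be measured here.

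CXCL9 and CXCL10 are secreted ligands of CXCR3, a receptor of activated T cells and NK cells. Macrophages and dendritic cells (DCs) transcribe both genes after interferon-γ, and Cxcl10 is in addition a target of type I interferon and of NF-κB. CXCL16 is the ligand of CXCR6, which is found on tissue-resident and effector T cells, and it is unusual among CXC chemokines because it is made as a transmembrane protein. The metalloproteinases ADAM10 and ADAM17 can release its soluble form.

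Both libraries came from C57BL/6 mice, male by the methods of the study, that carried MC38 tumors, a mouse colon cancer line, in both flanks. Microwave ablation (MWA), the destruction of tissue by heat, was applied to the right tumor alone once it measured about 300 mm3. The MWA group received an isotype control antibody, and the MWA plus TIGIT group received a blocking antibody against TIGIT, an inhibitory receptor of T and NK cells, in 3 intraperitoneal injections that were 3 days apart and started 1 day after MWA. CD45+ cells were sorted on day 8 from the left tumor, which had not been ablated. The ages of the mice at sorting and the number pooled into a library are not given in the sources used here. Both groups were ablated, so the comparison addresses what the antibody added to ablation. Each group was 1 library, so no test between the groups was possible, and every interval given covers counting error within these libraries and not the spread between mice.

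The libraries held 10217 and 10190 barcodes for MWA and MWA plus TIGIT. After removal of called doublets and of cells with over 10% mitochondrial UMIs or under 200 genes, 9231 and 9127 cells with 56841615 and 67808666 unique molecular identifiers (UMIs, counted transcripts) were kept, and the MWA plus TIGIT cells were deeper (median 6345 against 5342 UMIs). Levels are therefore given on the usual CPM scale, the UMIs of a gene relative to all UMIs of the same cells, and shares of cells with a UMI after each cell was thinned to 1000 UMIs. The 37 barcodes found in both libraries left 34 and 31 kept cells. Names of clusters were rebuilt from markers and end in "-like", since no cell annotation was used. Of 14 myeloid clusters 12 could be named, and the 3 chemokine genes and the others discussed by the study did not enter the clustering. Macrophage-like clusters (tumor-associated macrophages, TAMs) held 3713 and 3819 cells, monocyte-like clusters 617 and 709, DC-like clusters 213 and 169, neutrophil-like cells 109 and 95, and T cells 4070 and 3806. The complement gene C1qa stood between 3069 and 6408 CPM in the TAM-like clusters, and at 2204 CPM in the cDC2-like cluster. It was at 1286 and 272 CPM in the monocyte-like clusters led by Ly6c2 and by Hp. In the cDC1-like cluster it was at 264 CPM, and the defining gene Xcr1 at 538 CPM.

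The promoters of the CXCR3 ligands are shown because their levels are compared over the same cells. Both run 5′ to 3′ on the coding strand, from 250 bases before the RefSeq start to 50 bases after it (GRCm38.p6). Capitals mark matches to motifs of interferon or NF-κB signaling. No entry for Cxcl16 was used here.
Cxcl9, chr5:92328030-92328329, minus strand: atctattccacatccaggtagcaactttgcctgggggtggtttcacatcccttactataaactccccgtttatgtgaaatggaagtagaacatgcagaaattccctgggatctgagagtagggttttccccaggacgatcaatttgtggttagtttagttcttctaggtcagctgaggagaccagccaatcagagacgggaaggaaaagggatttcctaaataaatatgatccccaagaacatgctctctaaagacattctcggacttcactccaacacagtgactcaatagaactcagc
Cxcl10, chr5:92348840-92349139, minus strand: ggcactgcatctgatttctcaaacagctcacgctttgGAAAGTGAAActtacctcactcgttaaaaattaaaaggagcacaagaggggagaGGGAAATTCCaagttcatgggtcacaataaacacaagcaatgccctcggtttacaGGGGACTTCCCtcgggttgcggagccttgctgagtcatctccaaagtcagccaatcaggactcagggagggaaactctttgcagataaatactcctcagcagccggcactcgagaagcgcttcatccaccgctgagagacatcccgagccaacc

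The Cxcl10 window held 1 match to GAAANNGAAA, the interferon-stimulated response element, at -213 to -204 from the start. It also held NF-κB matches at -159 to -150 and, overlapping each other, at -104 to -95 and -103 to -94. Neither these motifs nor TTCNNNGAA, the core of the gamma-activated site, matched the Cxcl9 window on either strand, which says only that these letters are not in those 300 bases. Of 32851 promoters of the same length, 3.44% held the interferon-stimulated response element, 8.30% TTCNNNGAA and 8.46% the NF-κB motif.

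Cxcl9 was a transcript of macrophage-like, DC-like and monocyte-like cells with a wide range over the 12 named clusters. Its level was highest in the interferon-induced TAM-like cluster (led by Rsad2 and Ifit3, antiviral genes), at 2135 CPM (95% interval 2057 to 2215) in MWA and 2090 CPM (2028 to 2153) in MWA plus TIGIT. Among the named clusters the cDC1-like cells were next in both libraries, with 660 and 1645 CPM. This DC type cross-presents antigen to CD8+ T cells. The TAM-like cluster led by Gpr34 and Selenop followed with 416 and 716 CPM. This and 2 further TAM-like clusters are called by leading genes alone, since the marker lists did not part them: Arg1, the arginase gene, stood highest, at 3103 CPM, in the Slc7a2-led cluster, against 2252 CPM in the Hspb1-led and 737 CPM in the Gpr34-led cluster. The lowest level was in the monocyte-like cluster led by Hp, with 40.5 and 15.5 CPM from 21 and 9 UMIs, and the TAM-like cluster led by Hspb1 and Hspa1b, heat shock genes, stood at 54.1 and 117 CPM. In MWA the order could not be resolved between the Ly6c2-led monocyte-like cells (350 CPM) and the cDC2-like cells (325 CPM). Nor could it from there to the cycling TAM-like clusters led by Hells (314 CPM) and Ccnb2 (289 CPM), since neighboring intervals overlapped. The highest level was 7.08 and 7.06 times the median cluster in the 2 libraries. Of the clusters left unnamed, the one led by Cma1 and Mcpt2 stood at 815 and 695 CPM, above the cDC1-like cells in MWA. It held 233 and 321 cells with medians of 1418 and 1257 UMIs.

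Among the myeloid clusters Cxcl10 stood out most in a single cluster, by its highest level over the median. The interferon-induced TAM-like cluster stood at 1666 CPM (1598 to 1737) in MWA and 1694 CPM (1639 to 1751) in MWA plus TIGIT, 19.1 and 18.4 times the median cluster. No other named cluster passed 196 CPM in MWA or 214 CPM in MWA plus TIGIT. The Slc7a2-led TAM-like cluster was near the bottom of the range with 20.1 and 13.4 CPM. In the cDC1-like cells, second for Cxcl9 among the named clusters, Cxcl10 stood at 38.2 and 12.1 CPM, from 21 and 4 UMIs. The order of these last clusters in MWA plus TIGIT could therefore not be resolved. The interferon-induced cluster was itself built from interferon-stimulated genes, so its high Cxcl9 and Cxcl10 describe that state and were not tested. Its cells also carried the monocyte gene Ly6c2 at 236 CPM. The other TAM-like clusters had 5.50 to 19.8 CPM, and the monocyte-like clusters led by Ly6c2 and by Hp had 471 and 1398 CPM.

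Cxcl16 was spread almost evenly. Over the named clusters its highest level was only 1.27 times the median cluster in both libraries, and 10 of the 12 stood between 318 and 463 CPM in MWA and between 360 and 487 CPM in MWA plus TIGIT. In MWA the intervals of every neighboring pair among those 10 overlapped, from the interferon-induced TAM-like cells (463 CPM) to the cDC1-like cells (318 CPM). The neutrophil-like cells (127 and 111 CPM) and the Hp-rich monocyte-like cells (57.9 and 39.7 CPM), which carried Ly6c2 at 1398 CPM, were the exceptions. The Ly6c2-led monocyte-like cells had 377 and 408 CPM, within the range of the TAM-like clusters.

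**Figure D1:**
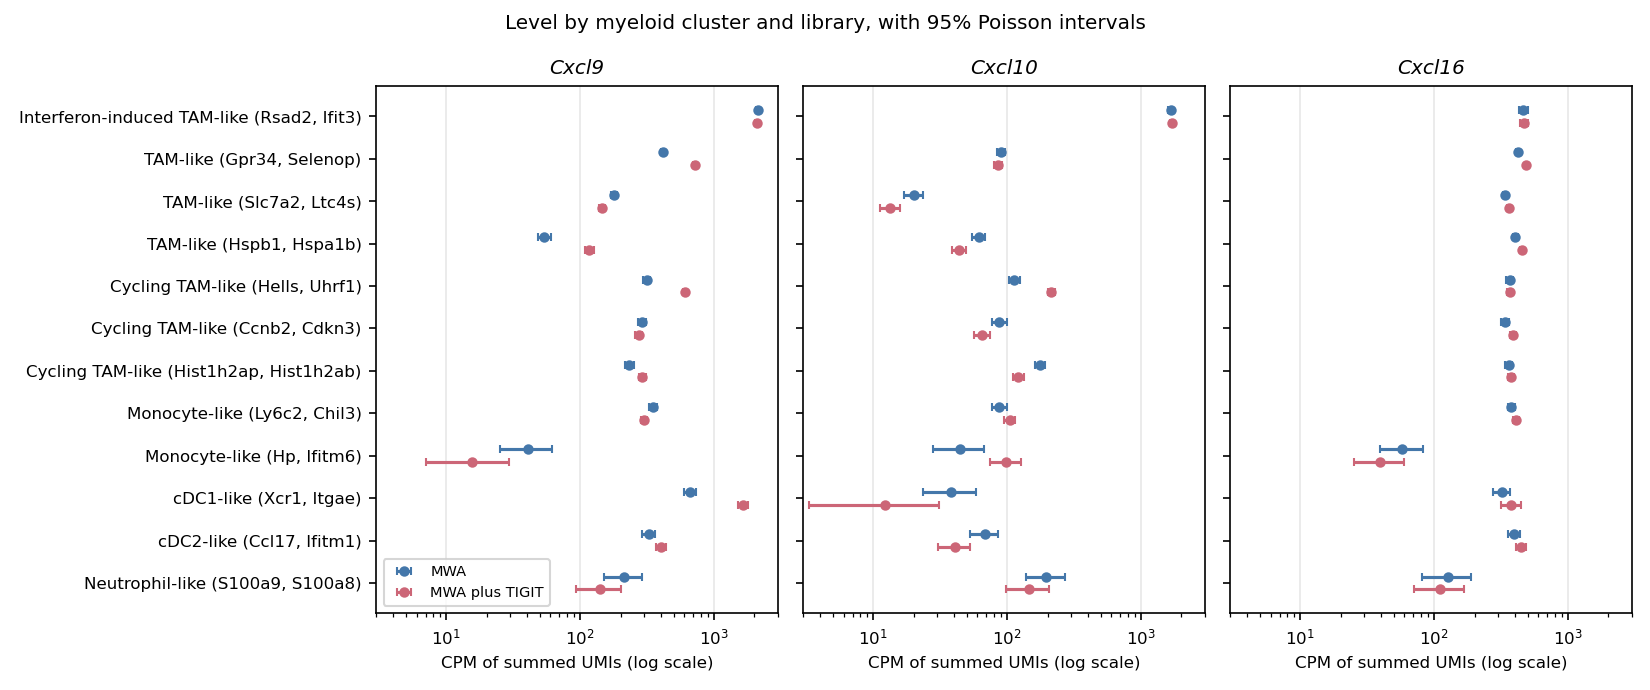
Level of each gene (CPM, log axis) in the 12 named myeloid clusters of the MWA and MWA plus TIGIT libraries, with exact Poisson 95% intervals. Cxcl9 and Cxcl10 peak in the interferon-induced TAM-like cluster (2135 and 1666 CPM in MWA), whereas Cxcl16 lies between 318 and 463 CPM in 10 clusters of that library.

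The balance of both CXCR3 ligands differed between clusters. In the interferon-induced TAM-like cluster there were 0.781 (0.738 to 0.825) and 0.811 (0.775 to 0.848) Cxcl10 UMIs for each Cxcl9 UMI in MWA and MWA plus TIGIT. In the cDC1-like cells there were 0.0579 (0.0354 to 0.0898) and 0.00738 (0.00200 to 0.0190), and in the cDC2-like cells 0.208 and 0.102. The intervals of the DC types did not meet that of the interferon-induced macrophages in either library. A low ratio was not particular to DCs, since the other TAM-like clusters differed widely. It was 0.215 and 0.119 in the Gpr34-led cells and 0.112 and 0.0921 in the Slc7a2-led cells, near the cDC2-like values. In the Hspb1-led cells it was 1.13 and 0.372. Over all TAM-like cells the ratio was 0.423 (0.409 to 0.438) in MWA and 0.331 (0.322 to 0.341) in MWA plus TIGIT. Over all DC-like cells it was 0.130 (0.103 to 0.162) and 0.0541 (0.0408 to 0.0705). In the monocyte-like cells the order was the other way, 0.267 in MWA and 0.384 in MWA plus TIGIT.

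Between the libraries, Cxcl9 was the member that differed most in macrophages. TAM-like cells held 11270 Cxcl9 UMIs in MWA and 20064 in MWA plus TIGIT, 335 and 469 CPM, a log2 ratio of 0.49 (0.45 to 0.52). Cxcl10 went from 142 to 155 CPM (log2 ratio 0.13, 0.08 to 0.19) and Cxcl16 from 383 to 419 CPM (0.13, 0.10 to 0.16). None of the 3 reached a 1.5-fold difference in all TAM-like cells, the size that 2.79% of 12805 tested genes passed upward, and the median log2 ratio of those genes was 0.04. The intervals treat UMIs as independent, whereas Cxcl9 and Cxcl10 UMIs came from few cells, so even for these libraries they are too narrow. When cells over 5000 UMIs were left out, a limit the methods of the study name, 703 and 461 TAM-like cells remained, and the log2 ratios became 0.04 (-0.09 to 0.18) for Cxcl9, -0.30 for Cxcl10 and -0.25 for Cxcl16.

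In monocyte-like cells no order of the libraries is read for Cxcl9. Its level was 301 CPM in MWA and 270 CPM in MWA plus TIGIT (log2 ratio -0.16, -0.28 to -0.04), but the share of thinned cells with a UMI stood the other way, at 7.76% and 8.69%. Cxcl10 was 80.6 and 104 CPM (0.36, 0.15 to 0.58), and Cxcl16 was 327 and 367 CPM (0.17, 0.06 to 0.28). None of these reached 1.5-fold, which 5.82% of 9507 genes did upward. The sign for Cxcl9 turned when cells were gated on marker UMIs in place of clusters (0.46) and when cells over 5000 UMIs were left out (0.19), and that for Cxcl10 turned in the latter (-0.77).

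In DC-like cells Cxcl9 was 443 CPM in MWA and 647 CPM in MWA plus TIGIT (log2 ratio 0.55, 0.41 to 0.69), just under 1.5-fold, while 10.3% of 8181 genes tested in these few cells passed it upward. Cxcl10 stood the other way, at 57.4 and 35.0 CPM (-0.71, -1.22 to -0.22), from 90 and 58 UMIs, a difference past 1.5-fold in a direction in which 514 of those genes passed it. Cxcl16 was 368 and 433 CPM (0.23, 0.07 to 0.39). The share of thinned DC-like cells with a UMI was 16.2% and 16.6% for Cxcl9 and 2.86% and 2.96% for Cxcl10, so no order is read for Cxcl10, whose sign also turned (1.37) when interferon-induced genes were kept out of the clustering. The Cxcl9 difference was larger in the cDC1-like cells, 660 against 1645 CPM (log2 ratio 1.32, 1.12 to 1.51), but they were 62 and 28 cells, and 1 cell held 34.2% and 36.9% of their Cxcl9 UMIs. In the cDC2-like cells, 151 and 141 in number, it was 325 against 399 CPM (0.30, 0.10 to 0.50), of which 1 cell of MWA plus TIGIT held 103 of 530 UMIs. Without the highest cell of each library the interval held 0 (0.20, -0.02 to 0.42), and the thinned share stood the other way, 14.2% and 12.1%, so no order is read. The 10 T cell markers summed to 226 CPM in the cDC1-like cells of MWA and to 24.3 CPM in those of MWA plus TIGIT, where 4 of them were at 0, and their part in the difference was not tested. Of the cells gated as mature DCs by Ccr7 and Fscn1, only 7 and 4 were found, with 7 and 102 Cxcl9 UMIs, of which 100 in a single cell, and no Cxcl10 UMI in either library.

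Within the TAM states the libraries differed in Cxcl9 to an extent that varied by cluster. In the Gpr34-led TAM-like cells it went from 416 CPM in MWA to 716 CPM in MWA plus TIGIT (log2 ratio 0.78, 0.73 to 0.84). It was also higher in the Hspb1-led TAM-like cells, 54.1 to 117 CPM (1.12, 0.92 to 1.32), and in the cycling cells led by Hells, 314 to 604 CPM (0.95, 0.85 to 1.05). In the interferon-induced cluster, where the gene was highest, the interval held 0 (log2 ratio -0.03, -0.10 to 0.04), as it did in the Ccnb2-led cycling cells (289 and 273 CPM). In the Slc7a2-led TAM-like cells the level was lower in MWA plus TIGIT, 146 against 179 CPM (-0.29, -0.40 to -0.19). In that cluster the share of thinned cells with a Cxcl9 UMI was the other way, 6.77% against 5.65%. So it was in the Ly6c2-led monocyte-like cells (301 against 350 CPM), 10.1% against 9.33%, and no order is read from either.

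Cxcl10 followed Cxcl9 only in part of these states. In the Hells-led cycling cells it went from 113 to 214 CPM (log2 ratio 0.92, 0.75 to 1.09), beside Cxcl9. In the Hspb1-led TAM-like cells, where Cxcl9 was higher in MWA plus TIGIT, Cxcl10 was lower, at 43.6 against 61.1 CPM (-0.49, -0.72 to -0.25). In the histone-rich cycling cells it was 121 against 175 CPM (-0.53, -0.72 to -0.35), but the thinned share with a UMI stood the other way, 7.54% against 5.53%, and no order is read. In the Gpr34-led cluster its interval held 0 (-0.07, -0.20 to 0.06). In the interferon-induced cluster it was 1666 and 1694 CPM (0.02, -0.05 to 0.10). Left without that cluster, all other TAM-like cells held Cxcl10 at 79.1 and 77.1 CPM (-0.04, -0.11 to 0.04), whereas Cxcl9 still differed, 261 against 386 CPM (0.57, 0.53 to 0.61).

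Cxcl16 differed little in any TAM state. The log2 ratios ran from 0.00 in the Hells-led cycling cells (366 and 367 CPM) to 0.20 in the Gpr34-led cells (424 and 487 CPM). The interval lay above 0 in 4 of the 7 TAM-like clusters, namely the Gpr34-led, the Slc7a2-led and the Hspb1-led cluster (402 and 455 CPM in the last) and the Ccnb2-led cycling cluster. In none of the 7 did it lie below 0.

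**Figure D2:**
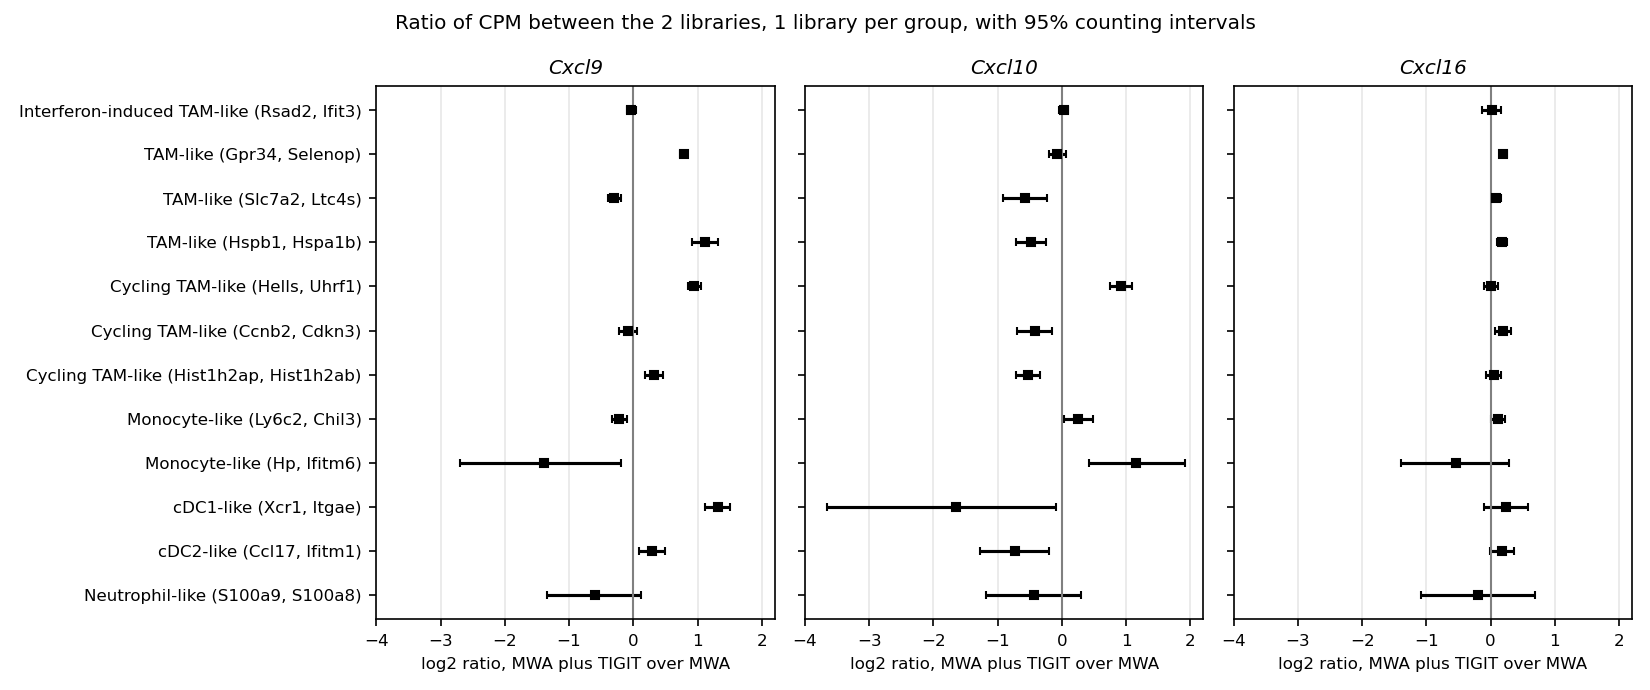
Log2 ratio of MWA plus TIGIT over MWA for each gene in the 12 named myeloid clusters, 1 library per group, with exact 95% intervals for counting error and a line at 0. For Cxcl9 the ratio is 0.78 in the Gpr34-led TAM-like cells and -0.03 in the interferon-induced TAM-like cells, and for Cxcl16 no TAM-like interval lies below 0.

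Over all kept cells, Cxcl9 was 237 CPM in MWA and 341 CPM in MWA plus TIGIT, Cxcl10 109 and 119 CPM, and Cxcl16 264 and 310 CPM. Each difference was divided into a part from levels within clusters and a part from the share of UMIs that each cluster held. For Cxcl9, 78.9 of the 104 CPM difference (75.7%) lay in the levels, 52.4 CPM of it in the Gpr34-led cluster and 19.4 CPM in the Hells-led cycling cells. For Cxcl10 the levels gave -2.54 CPM and the shares 13.1 CPM, of which 11.998 CPM came from the interferon-induced cluster, which held 2.34% of all UMIs in MWA and 3.05% in MWA plus TIGIT. For Cxcl16 the levels gave 53.2% of the 46.2 CPM difference. With 1 library per group, treatment and the sorting or recovery of cells cannot be told apart in these shares.

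The interferon-induced TAM-like cells, 166 and 197 in number, held a share of the chemokine UMIs far above their share of all UMIs. They had 21.1% and 18.7% of all Cxcl9 UMIs, and 35.8% (34.6 to 37.0) and 43.3% (42.2 to 44.4) of all Cxcl10 UMIs, in MWA and MWA plus TIGIT. Of the Cxcl16 UMIs they held 4.10% and 4.61%. The largest holder of Cxcl9 was the Gpr34-led TAM-like cluster, with 30.5% and 37.0% of the UMIs from 17.4% and 17.6% of all UMIs. All TAM-like cells together held 83.7% and 86.7% of Cxcl9, 77.1% and 82.1% of Cxcl10 and 86.2% and 85.4% of Cxcl16. Monocyte-like cells held 7.44% and 6.14% of Cxcl9 and DC-like cells 5.15% and 4.63%.

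**Figure D3:**
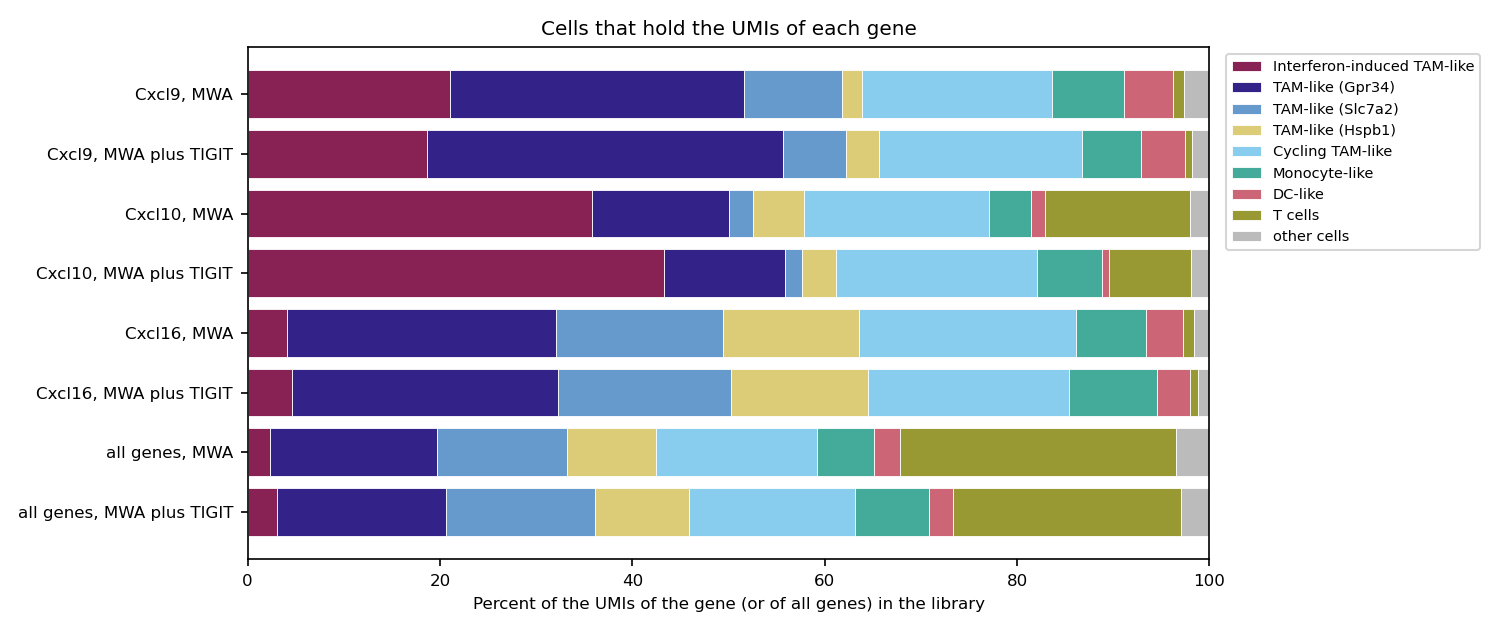
Share of each gene's UMIs, in percent of the library's total for that gene, that the clusters and cell types hold in MWA and MWA plus TIGIT, with the share of all UMIs in the lowest bars. The 3 cycling TAM-like clusters are joined, and so are the monocyte-like and the DC-like ones. The interferon-induced TAM-like cells hold 35.8% and 43.3% of Cxcl10 but 4.10% and 4.61% of Cxcl16, and T cells hold 15.1% and 8.58% of Cxcl10.

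UMIs of Cxcl9 and Cxcl10 were found in few cells, those of Cxcl16 in most. Before thinning, 88.4% and 92.9% of TAM-like cells had a Cxcl16 UMI, 24.9% and 29.9% a Cxcl9 UMI, and 17.2% and 19.8% a Cxcl10 UMI, in MWA and the deeper MWA plus TIGIT. At 1000 UMIs per cell, 423 of 3701 TAM-like cells of MWA (11.4%, 10.4 to 12.5) and 539 of 3814 of MWA plus TIGIT (14.1%, 13.04 to 15.28) had a Cxcl9 UMI. For Cxcl10 the counts were 223 and 257 cells (6.03% and 6.74%, with overlapping intervals), and for Cxcl16 they were 1124 and 1242 cells (30.4% and 32.6%). Of the Cxcl9 UMIs of the thinned TAM-like cells, the top 1% of cells held 37.2% in MWA and 27.7% in MWA plus TIGIT. For Cxcl10 the top 1% held 46.3% and 43.4%, and for Cxcl16 8.51% and 8.19%. In these thinned cells the variance of the UMIs per cell was 7.61 and 6.60 times the mean for Cxcl9. It was 4.49 and 4.75 times the mean for Cxcl10 and 1.07 and 1.11 times for Cxcl16. Thinning moves such values toward the 1 of pure counting noise, so no evenness between cells is read from that of Cxcl16.

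Within clusters of low Cxcl9 few cells also held most UMIs. In the Hspb1-led TAM-like cells 10 of 768 cells in MWA and 12 of 799 in MWA plus TIGIT held 50% of the Cxcl9 UMIs, and in the Slc7a2-led cells 10 of 850 and 15 of 931. In the Gpr34-led cluster it took 35 of 1120 and 40 of 1066 cells, and the thinned share with a Cxcl9 UMI also differed, 15.3% (13.2 to 17.5) against 21.4% (19.0 to 24.0). For Cxcl16 in the same cluster 283 and 274 cells held 50% of the UMIs. The highest single cells had 224 and 279 UMIs of Cxcl9 and 126 and 140 of Cxcl10 but 23 and 28 of Cxcl16.

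**Figure D4:**
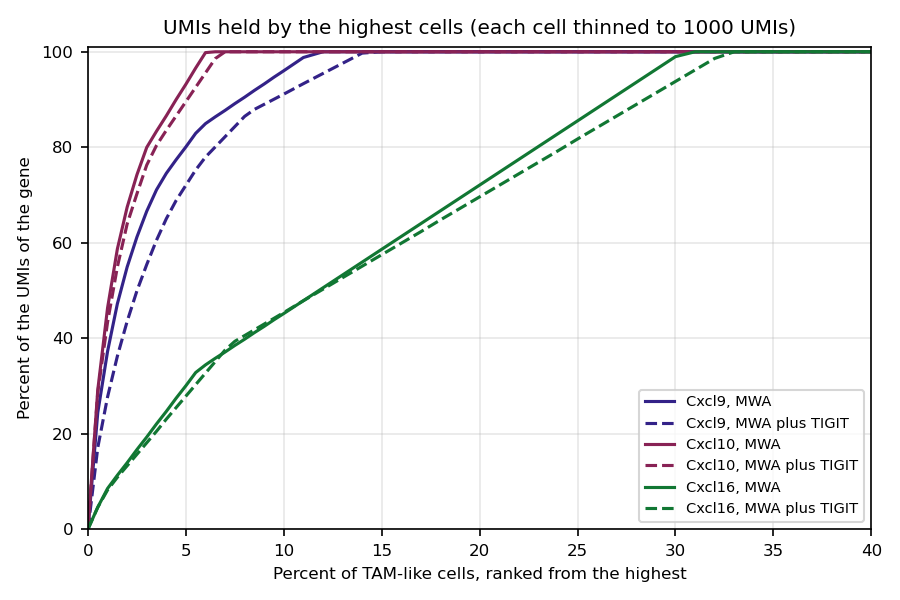
Cumulative share of each gene's UMIs (percent) over TAM-like cells ranked from the highest, after thinning to 1000 UMIs per cell, for both libraries. The top 1% of cells hold 37.2% and 27.7% of the Cxcl9 UMIs, 46.3% and 43.4% of Cxcl10 and 8.51% and 8.19% of Cxcl16.

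Cxcl9 and Cxcl10 were found in the same TAM-like cell more often than the product of their shares gives. At 1000 UMIs per cell, 63 of 3701 cells of MWA (1.70%, 1.31 to 2.17) and 88 of 3814 of MWA plus TIGIT (2.31%, 1.86 to 2.83) had both, 2.47 and 2.42 times the product. Of cells with Cxcl10, 28.3% and 34.2% had Cxcl9, against 10.4% and 12.7% of cells without it. Within the interferon-induced cluster the observed count was 36 of 165 and 43 of 197 cells, 1.18 and 1.11 times the product. Over all TAM-like cells without that cluster the factor was 1.82 (27 cells) and 2.24 (45 cells). Within the Gpr34-led cluster it was 1.31 and 1.53, from 12 and 18 cells. At this depth 360 and 451 TAM-like cells had Cxcl9 and no Cxcl10 UMI, and with all UMIs used the share with both was 6.49% and 8.72% of TAM-like cells.

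Detection of Cxcl16 was nearer to independent of the other genes. For Cxcl9 with Cxcl16 the observed share over the product was 1.07 in MWA and 1.23 in MWA plus TIGIT, from 137 and 216 TAM-like cells, and for Cxcl10 with Cxcl16 it was 1.18 and 1.05. All 3 genes were found together in 26 (0.703%) and 35 (0.918%) thinned TAM-like cells. In DC-like cells, 10 of 210 and 11 of 169 had Cxcl9 with Cxcl16, 0.980 and 1.33 times the product. Cxcl9 with Cxcl10 was found in 3 DC-like cells of each library, too few to compare. In monocyte-like cells it was found in 7 of 606 and 9 of 702, 3.34 and 2.88 times the product.

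Thinned TAM-like cells were also summed by which CXCR3 ligand they carried, as a description. The list of 5 MHC class II genes was chosen after its values were seen. Class II genes, which present antigen to CD4+ T cells, took 20.6 and 21.1 of each 1000 UMIs in cells with Cxcl9 alone and 20.9 and 21.5 in cells with both. They took 11.1 and 12.2 in cells with neither and 11.5 and 12.3 in cells with Cxcl10 alone. The 32 type I interferon response genes found took 2.69 and 2.88 UMIs in cells with neither and 3.26 and 3.20 in cells with Cxcl9 alone, but 7.68 and 9.47 in cells with Cxcl10 alone. In cells with both they took 8.30 in MWA, above those with Cxcl10 alone, and 5.77 in MWA plus TIGIT, below them. The 30 genes of the interferon-γ response list took 1.30 and 1.39 in cells with neither, 2.24 and 2.37 with Cxcl9 alone, 2.67 and 3.15 with Cxcl10 alone, and 5.52 and 5.49 with both. Outside the interferon-induced cluster the same order of class II genes was seen between Cxcl9 alone (19.9 and 21.0) and Cxcl10 alone (12.9 and 13.1), while the type I list came to 3.88 and 4.12 with Cxcl10 alone against 2.85 and 2.84 with Cxcl9 alone. There, cells with both stood at 15.3 in MWA, from 27 cells, and 22.5 in MWA plus TIGIT, from 45 cells, for class II. Of the TAM-like cells with Cxcl10 alone, 40 of 160 and 57 of 169 were in the interferon-induced cluster. In the Gpr34-led cluster the type I list came to 2.83 and 2.86 with Cxcl10 alone, from 48 and 37 cells. It came to 2.99 and 2.78 there with Cxcl9 alone and to 2.72 and 2.78 with neither. No type I contrast was thus seen in the Gpr34-led cluster. C1q genes ranged from 13.9 to 17.5 UMIs per 1000 over the combinations in all TAM-like cells.

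**Figure D5:**
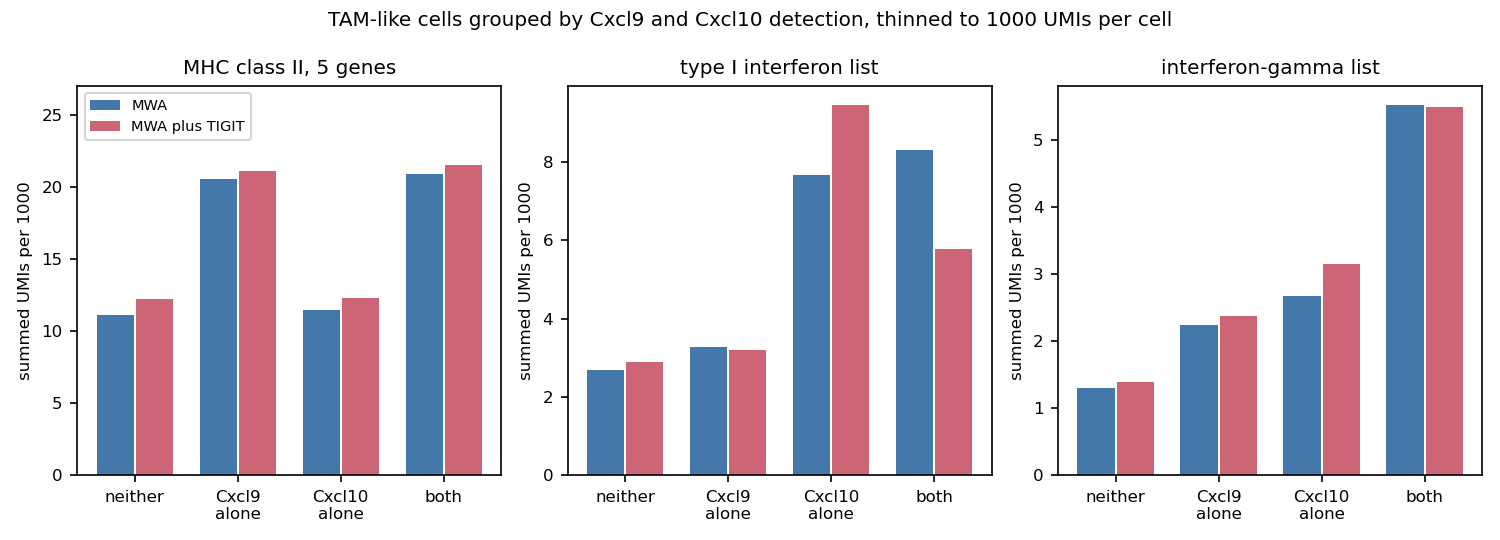
Summed UMIs per 1000 of MHC class II, type I interferon response and interferon-γ response genes (vertical axes, each from 0) in thinned TAM-like cells with neither ligand, Cxcl9 alone, Cxcl10 alone or both, for MWA and MWA plus TIGIT, with no error bars. Class II genes stand at 20.6 and 21.1 with Cxcl9 alone against 11.5 and 12.3 with Cxcl10 alone, and type I genes at 3.26 and 3.20 against 7.68 and 9.47. The interferon-induced cluster is included.

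Cxcl10 was also found in lymphocytes, at a larger share of its TAM-like level than the other members. T cells held Cxcl9 at 9.52 and 10.4 CPM and Cxcl16 at 10.4 and 10.3 CPM, which is 2.22% to 2.84% of the TAM-like level. The macrophage genes C1qa, C1qb, C1qc, Apoe and Lyz2 stood in T cells at 1.84% to 2.85% of theirs. Whether the Cxcl9 and Cxcl16 values are background RNA of macrophages or expression was not tested. Cxcl10 stood at 57.2 and 43.3 CPM in T cells, 40.4% and 27.9% of the TAM-like level, and at 114 and 102 CPM in the cluster led by Foxp3, the gene of regulatory T cells. Single T cells reached 40 and 59 Cxcl10 UMIs. At 1000 UMIs per cell, 140 of 3968 and 100 of 3717 T cells had a Cxcl10 UMI (3.53% and 2.69%), against 46 and 47 with Cxcl9. Those cells had C1q at 0.429 and 0.540 UMIs per 1000, against 0.376 and 0.369 in the other T cells, but type I interferon response genes at 6.99 and 7.42 against 3.36 and 3.59. NK cells held Cxcl10 at 33.3 and 62.1 CPM from 29 and 41 UMIs. In the neutrophil-like cells the same macrophage genes stood at 22.6% to 34.8% of the TAM-like level in MWA and at 10.5% to 20.2% in MWA plus TIGIT. Cxcl16 stood there at 33.1% and 26.5% of its TAM-like level and Cxcl9 at 63.3% and 29.8%, where 1 cell held 15 of 40 and 22 of 29 Cxcl9 UMIs. Cxcl10, at 138% and 93.1% from 37 and 30 UMIs, lay above the range of the macrophage genes in both libraries.

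The receptors were seen on the lymphocyte side. In T cells Cxcr3, the receptor of CXCL9 and CXCL10, was 78.9 CPM in MWA and 105 CPM in MWA plus TIGIT (log2 ratio 0.41, 0.30 to 0.52), and Cxcr6, the receptor of CXCL16, was 167 and 217 CPM (0.38, 0.31 to 0.45). Ifng, the gene of interferon-γ, was 169 and 188 CPM (0.15, 0.07 to 0.22). In TAM-like cells, Adam10 was 128 and 139 CPM and Adam17 100.5 and 109 CPM, both with a log2 ratio of 0.12. Dpp4, a protease that trims CXCR3 ligands, was under the limit of 20 UMIs in TAM-like cells and was not tested there.

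Summed over all TAM-like cells, most interferon-γ response genes tested stood slightly higher in MWA plus TIGIT. Of 29 interferon-γ response genes tested, the counting interval lay above 0 in 21 and below 0 in none, and the median log2 ratio was 0.21, beside 2465 above and 1157 below of all 12805 genes. Guanylate-binding Gbp2 was 88.1 and 98.2 CPM (0.16), and Cd274, the gene of PD-L1, 30.6 and 40.3 CPM (0.40). Ido1 had no UMI in either library. Of 32 type I interferon response genes 22 lay above 0 and none below, with a median of 0.15, among them Isg15 (95.03 and 113 CPM), Ifit3 (32.0 and 40.8 CPM) and Rsad2 (64.1 and 82.3 CPM). Of 12 interferon-γ pathway regulators 7 lay above and 3 below, with Ifngr1, a receptor chain, at 127 and 142 CPM and the factor Irf1 at 50.1 and 54.7 CPM. The 3 below, also named after their values were seen, were Nfkb1 (73.6 and 69.1 CPM), Tnf (37.0 and 33.4 CPM) and Ifng itself (1.81 and 1.17 CPM, from 61 and 50 UMIs), the last past 1.5-fold. Upward, 2 genes of these lists passed 1.5-fold, Nos2 (4.22 and 7.52 CPM) and Upp1 (3.50 and 7.45 CPM), which are named here after their values were seen. Within the interferon-induced cluster the interferon-γ response median was 0.06 and the type I median -0.02, with all genes at 0.01. That cluster held 2.34% of all UMIs in MWA and 3.05% in MWA plus TIGIT. The lists were not counted over the TAM-like cells without it, so the part of its share in these differences was not tested.

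Of 7 other CXC chemokines tested in TAM-like cells, the interval lay below 0 in 5 and above 0 in 1, with a median log2 ratio of -0.22, beside 1157 below and 2465 above of all 12805 genes. By size, 1 of them (Cxcl3) passed 1.5-fold downward and 2 of few UMIs (Cxcl13 and Ppbp) upward. The neutrophil chemoattractant Cxcl2 was 1097 and 804 CPM (-0.45), Pf4, platelet factor 4, 559 and 448 CPM (-0.32), Cxcl14 190 and 165 CPM (-0.21), and Cxcl1 18.0 and 15.4 CPM (-0.22). Cxcl3 was 3.09 and 1.71 CPM. The gene above 0, Cxcl13, had only 3 and 21 UMIs, and Ppbp, whose interval held 0, 10 and 20. Ccl5, a CC chemokine, was 144 and 147 CPM in TAM-like cells and 265 and 145 CPM in DC-like cells (-0.87, -1.11 to -0.64), a class in which the T cell markers summed to 122 and 57.96 CPM. Ccl5 stood at 3599 and 5516 CPM in T cells, and the part of such RNA in the DC-like value was not tested.

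Genes with the most similar pattern over the 12 named clusters were taken from 7003 genes by Pearson's r of log2(CPM + 1), ranked by the lower r of the libraries. For Cxcl9 they were Fnbp1l (r = 0.82 and 0.91), Ccdc88b (0.81 and 0.84), Ppa1 (0.87 and 0.80), Iigp1, an interferon-inducible GTPase (0.80 and 0.80), and Ccnd1 (0.76 and 0.84). For Cxcl10 they were Calhm6 (0.87 and 0.86), Ifi208 (0.91 and 0.85), Gbp3 (0.86 and 0.85), Ifi47 (0.83 and 0.86) and Eif2ak2, the kinase PKR (0.86 and 0.81). Classical interferon-inducible genes are among these, such as Gbp3 and Ifi47. For Cxcl16 they were Slamf9 (0.97 and 0.97), Bcl2a1b (0.96 and 0.96), Zmynd15 (0.92 and 0.94), Cttnbp2nl (0.93 and 0.89) and Bcl2a1a (0.92 and 0.88), of which Bcl2a1a and Bcl2a1b are near-identical copies whose reads may be shared. The class II gene H2-Ab1 was at r = 0.69 and 0.73 with Cxcl9, 0.04 and -0.30 with Cxcl10 and 0.58 and 0.58 with Cxcl16. Cxcl9 with Cxcl10 was at 0.61 and 0.23, and Cxcl10 with Cxcl16 at 0.21 and -0.05. These are descriptions over 12 clusters that share libraries, depth and background RNA, so no p is given.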

How the data were processed

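UMI counts per gene and cell, deposited by the authors as 1 matrix per library, were used as raw counts. Per the labels they came from Cell Ranger 6.1.1 with mm10, whereas the matrix header names cellranger 4.0.0. The chemistry was 10x V3.1. Barcodes with under 200 genes or over 10% mitochondrial UMIs and called doublets (simulated sums, 0.8% per 1000 barcodes) were removed. No upper limit on UMIs was set, since 55.2% and 60.3% of barcodes exceeded 5000. Cells were integrated and clustered with Seurat 5.3.0 (40 principal components, resolution 0.1 for all cells and 0.5 for myeloid cells). The 3 members and the other genes named by the study were left out of the clustering. Clusters were named from fixed marker lists, 3 of the TAM-like ones by leading genes alone, and may differ from the annotation of the study.

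UMIs were summed per class and library. Levels carry exact Poisson 95% intervals, ratios exact conditional binomial intervals and shares exact Clopper-Pearson intervals, all for counting error only. With 1 library per group no test was made, and a gene was called at 1.5-fold, among genes with at least 20 UMIs over both libraries. The steps were tested on simulated data. Named were the members, the genes of their receptor axis, 10 interferon and chemokine genes, of which 1 is not reported here, and the 5 genes most like each member in pattern, among those with at least 20 CPM in a class of each library. Members and lists were chosen with earlier results of these data known.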

Additional observations from a re-analysis of the deposited data

Results flagged for a closer look

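The direction of the difference between the libraries was not shared by all cell types for Cxcl9 and Cxcl10. Each value here is the log2 ratio of MWA plus TIGIT over MWA in cells whose counting interval excluded 0, and with 1 library per group the differences between cell types were not tested. For Cxcl9 the ratio was 0.49 in all TAM-like cells. It was 0.55 in all DC-like cells, where the thinned shares hardly differed (16.2% and 16.6%) and 7 and 5 cells held 50% of the UMIs. In all monocyte-like cells it was -0.16. The last does not hold: the thinned share of monocyte-like cells with a UMI stood the other way (7.76% and 8.69%), and the ratio turned to 0.46 with classes from marker UMIs and to 0.19 without cells over 5000 UMIs. For Cxcl10 it was 0.13 in all TAM-like and 0.36 in all monocyte-like cells but -0.71 in all DC-like cells, where the thinned shares were 2.86% and 2.96% and the ratio turned to 1.37 with the interferon lists left out of the clustering. Without cells over 5000 UMIs it was -0.30 in TAM-like and -0.77 in monocyte-like cells.

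Among the TAM-like clusters the Cxcl9 ratio was 1.12 in the Hspb1-led cells, 0.95 in the Hells-led cycling cells, 0.32 in the histone-rich cycling cells and 0.78 in the Gpr34-led cells, against -0.29 in the Slc7a2-led cells. The thinned share with a Cxcl9 UMI stood the other way in the Slc7a2-led cells (5.65% and 6.77%) and in the histone-rich cells (12.4% and 11.6%), where 1 cell held 178 of 1022 UMIs in MWA plus TIGIT and the ratio without the highest cells was 0.19. The Cxcl10 ratio was 0.92 in the Hells-led cycling cells, against -0.49 in the Hspb1-led, -0.43 in the Ccnb2-led cycling, -0.53 in the histone-rich cycling and -0.58 in the Slc7a2-led cells. In the Ccnb2-led cells 1 cell held 79 of 256 UMIs in MWA, and without the highest cell of each library the interval held 0 (-0.03, -0.33 to 0.28). In the histone-rich cells the thinned share with a Cxcl10 UMI stood the other way (5.53% and 7.54%). No such split was seen for Cxcl16 among the TAM-like clusters or the 3 classes.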

How the results depend on the processing

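No paired analysis was possible because each group had 1 library. When cells over 5000 UMIs were left out, no DC-like and no interferon-induced cluster was found, so these gave no value. For the other results under that limit the log2 ratio of Cxcl9 was 0.044 in TAM-like cells, 0.19 in monocyte-like cells and -0.31 over all kept cells. For Cxcl10 it was -0.30, -0.77 and -0.47, and for Cxcl16 -0.25, 0.33 and -0.52. With no doublet removal it was 0.57 for Cxcl9 in TAM-like cells and -1.56 for Cxcl10 in DC-like cells, and the interferon-induced cells of MWA held 37.4% of Cxcl10 UMIs. With TMM factors it was 0.45 for Cxcl9 and 0.094 for Cxcl16 in TAM-like cells. With classes from marker UMIs it was 0.44 for Cxcl9 in TAM-like cells, 0.46 for Cxcl9 and 0.51 for Cxcl16 in monocyte-like cells and -1.85 for Cxcl10 in DC-like cells, and 12.5% of DC-like cells of MWA plus TIGIT had Cxcl9 with Cxcl16. With the interferon lists left out of the clustering it was -0.31 for Cxcl9 and 0.0085 for Cxcl10 in monocyte-like cells, and 0.73 for Cxcl9 and 1.37 for Cxcl10 in DC-like cells. In that setting, added after seeing the data for shares, the interferon-induced cells held 14.1% and 12.6% of Cxcl9 and 21.7% and 23.0% of Cxcl10 UMIs in MWA and MWA plus TIGIT. At resolution 1.0 the ratio of Cxcl10 in DC-like cells was -1.26. There the interferon-induced cells held 19.7% of Cxcl9 in MWA plus TIGIT and 38.9% and 44.6% of Cxcl10, also added later. Over all deposited barcodes the ratio was 0.60 for Cxcl9 and 0.19 for Cxcl10. Thinned to 2000 UMIs, 2.64% and 3.19% of TAM-like cells had Cxcl9 with Cxcl10, and 9.18% and 17.1% of DC-like cells Cxcl9 with Cxcl16. Without thinning these were 6.49% and 8.72%, and 25.8% and 31.4%. With at least 100 UMIs per gene, 0.79%, 1.68% and 4.11% of genes passed 1.5-fold in TAM-like, monocyte-like and DC-like cells. The causes of these changes were not tested.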
